A study of Mus musculus with 2 samples.

Results

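The heat shock proteins and co-chaperones described here are 10 genes, Hspa1a, Hspa1b, Hspa8, Hsp90aa1, Hsp90ab1, Hsph1, Dnajb1, Hspb1, Hspd1 and Hspe1. They were taken by symbol from the 31253 genes of the count tables. Each symbol occurred once, and all 10 were counted in both libraries. The list was drawn up with earlier results of these data known, deletion-to-control differences of Hspa1a and Hspa1b included, so differences between the libraries are given as descriptions. The libraries came from the tooth germ of the mandibular first molar of newborn C57BL/6 mice. The control library was Edarfl/fl, a conditional allele of the ectodysplasin receptor gene without Cre, and the deletion library was K14cre;Edarfl/fl, the same floxed allele with Cre under the keratin 14 promoter, which is active in epithelial cells. Mesenchyme, vessels and blood cells of the deletion library are therefore outside the lineage that K14cre targets. The number of animals behind a library is not stated in the labels. Each group was 1 library, so no test between genotypes was possible, and every interval below is a 95% interval that covers counting error only.

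Heat shock proteins bind unfolded or newly made proteins and help them to fold. Cells under heat or other protein-damaging stress release heat shock factor 1, which binds repeated GAA units in the promoters of its targets and switches on the inducible members within minutes. Hspa1a and Hspa1b encode the stress-inducible Hsp70, Dnajb1 its J-domain partner, Hsph1 an Hsp110 nucleotide exchange factor, Hspb1 the small heat shock protein Hsp27, and Hsp90aa1 the inducible Hsp90. Hspa8 and Hsp90ab1 encode the Hsc70 and Hsp90 that cells make all the time, and Hspd1 and Hspe1 the Hsp60 and Hsp10 of the mitochondrial chaperonin. In freshly dissociated tissue the inducible members are also known to be switched on by enzyme digestion at body temperature. Both libraries were digested for up to 40 min at 37 °C, per the labels.

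The upstream sequences are shown for the letters of the element that heat shock factor 1 binds. RefSeq start sites on GRCm38.p6, the mm10 assembly, gave a promoter for 7 of the 10 members. The 150 bases upstream of the start site follow, 5′ to 3′ on the gene's strand, with capitals for pairs of opposed units (GAANNTTC or TTCNNGAA, which read the same on both strands).
Hspa1a, chr17:34972157-34972306, minus strand: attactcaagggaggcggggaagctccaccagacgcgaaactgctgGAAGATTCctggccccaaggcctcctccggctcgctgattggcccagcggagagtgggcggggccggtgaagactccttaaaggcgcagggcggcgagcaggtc
Hspa1b, chr17:34959239-34959388, minus strand: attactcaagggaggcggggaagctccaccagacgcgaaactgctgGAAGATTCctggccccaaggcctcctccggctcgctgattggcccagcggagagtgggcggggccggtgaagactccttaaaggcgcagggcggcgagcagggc
Hspb1, chr5:135887769-135887918, plus strand: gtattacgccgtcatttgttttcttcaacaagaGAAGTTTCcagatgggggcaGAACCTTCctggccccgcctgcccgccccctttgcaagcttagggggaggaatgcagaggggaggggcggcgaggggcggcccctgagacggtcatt
Hspe1, chr1:55087998-55088147, plus strand: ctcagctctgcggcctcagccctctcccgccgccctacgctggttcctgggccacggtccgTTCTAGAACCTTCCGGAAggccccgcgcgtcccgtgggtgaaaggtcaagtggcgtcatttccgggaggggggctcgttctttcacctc
Hsph1, chr5:149636337-149636486, minus strand: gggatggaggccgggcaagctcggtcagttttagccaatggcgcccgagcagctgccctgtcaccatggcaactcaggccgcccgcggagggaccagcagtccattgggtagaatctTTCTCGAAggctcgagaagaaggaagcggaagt

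Hspa1a and Hspa1b carry the same pair 104 bases before their start sites, and their 300-base promoter windows (250 bases before the start site and 50 after) are 98.7% identical, with 4 differences. Hspb1 has 2 separate pairs, 117 and 97 bases before its start site. Hspe1 has a run of units in which 3 overlapping pairs begin 89, 84 and 79 bases before the start site. Hspd1 lies head to head with Hspe1 on chromosome 1, so the same run, at chr1:55088059-55088076, also lies 144 bases before one of the Hspd1 start sites. Hsph1 has a pair 33 bases before the start site of the sequence shown, and its 300-base window also holds a run of 3 units after the start site, with overlapping pairs at positions 37 and 42. A pair was found for 6 of the 7 members with a promoter, inducible and mitochondrial ones alike, and not for the inducible Dnajb1. A pair of either arrangement occurs in 15.1% of the 32851 promoter windows of the table and a run of at least 3 units in 0.603% of them, so a single pair is common and a run of 3 is not. A match is only a match of letters.

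Hspa1a (ENSMUSG00000091971) and Hspa1b (ENSMUSG00000090877) are neighbours on the minus strand of mm10 chromosome 17, at chr17:34969190-34972156 and chr17:34956436-34959238, with 9951 bases between them. Their coding sequences are 99.6% identical, with 8 differences over 1923 aligned bases, whereas their 3′ untranslated regions are 68.5% identical over 594 aligned bases. How the authors' counting shared reads that fit both copies is not stated in the labels, so the split between the copies is uncertain and their summed UMIs are given as well. By contrast, the Hspa1a and Hspa8 coding sequences are 74.7% identical. The genes of Hspd1 and Hspe1 overlap by 112 bases at their start sites on opposite strands, and the labels do not say whether the counting used strand.

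The control library held 13990 cell barcodes and 73375441 UMIs (unique molecular identifiers, each counting 1 captured transcript), and the deletion library 16029 barcodes and 62158879 UMIs. After filters on genes, mitochondrial share and doublets, 13255 control and 15244 deletion cells were kept, with medians of 4444 and 3329 UMIs, and 4 barcodes occurred in both libraries. Cells were clustered without heat shock, chaperone, stress and immediate early genes, and clusters were named from markers. The mesenchyme-like class held 8486 control and 11004 deletion cells, the epithelium-like class 2270 and 1886, the endothelium-like class 1227 and 979, the macrophage-like class 564 and 528, the mural-like class 364 and 349, and the neutrophil-like class 137 and 135. Edar, the targeted gene, was at 34.7 CPM (360 UMIs) in control and 21.2 CPM (145 UMIs) in deletion epithelium-like cells and at 1.35 and 1.43 CPM in mesenchyme-like cells. Whether the counted end of the Edar transcript lies in the deleted part is not given. CPM here means UMIs of a gene per 1000000 UMIs of all genes, summed over the cells of 1 class in 1 library. Levels are compared between classes and libraries and not between genes. Both libraries held cells with Xist and cells with Y-linked UMIs, in different proportions: of the epithelium-like cells, 385 control and 879 deletion cells had Xist only, and 881 and 287 had Y-linked UMIs only.

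**Figure D1:**
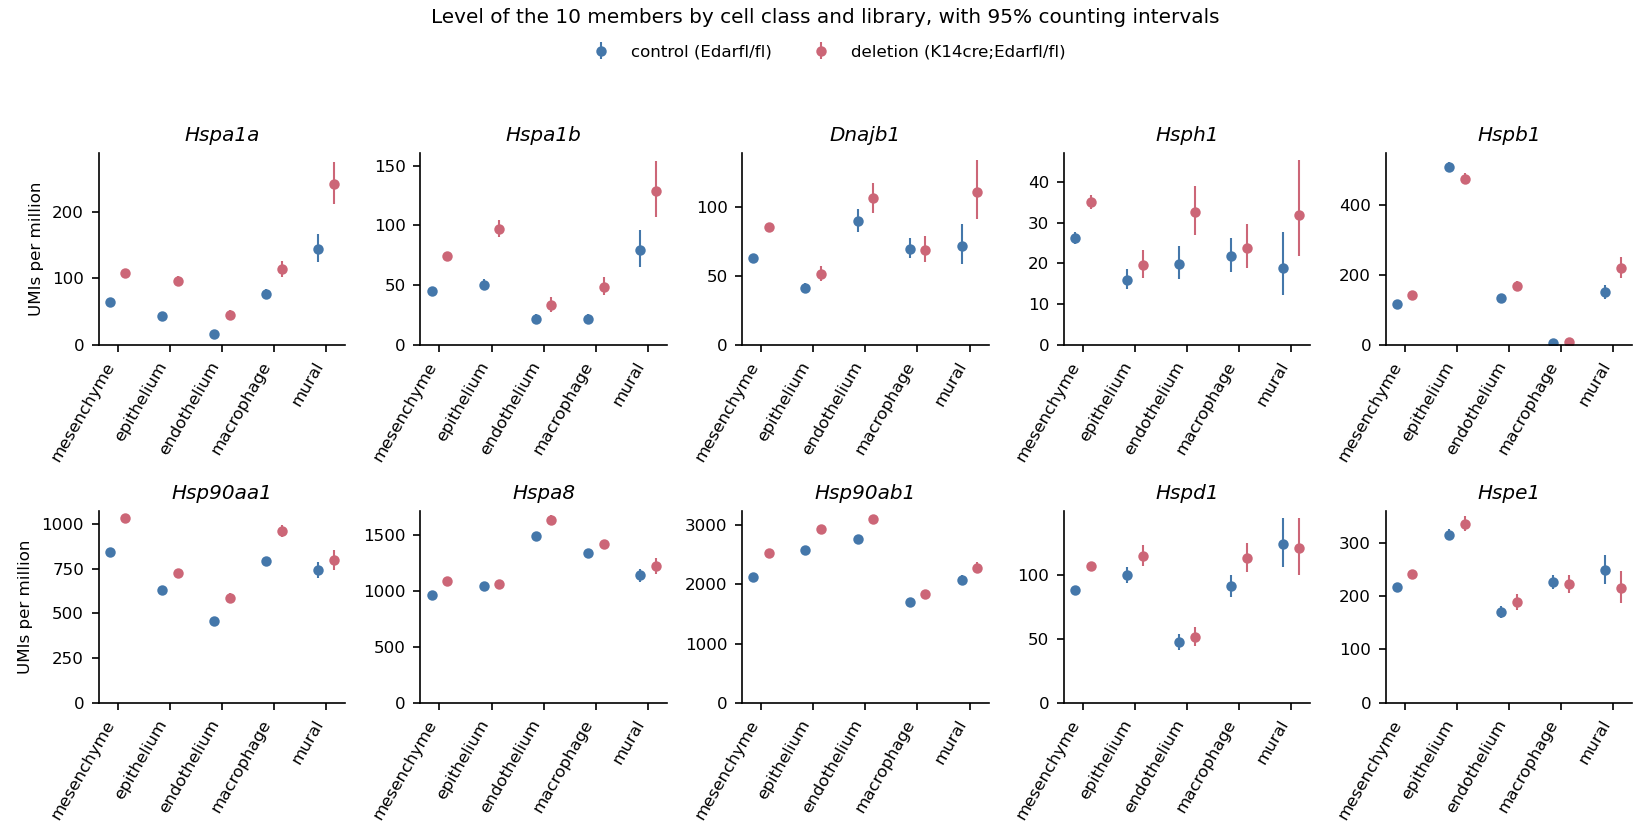
Level of each member in 5 cell classes, in CPM on a linear axis from 0, for the control (blue) and deletion (red) library; bars are 95% exact Poisson intervals and neutrophil-like cells are not drawn. Hspa1a and Hspa1b are highest in mural-like cells in both libraries, Hspb1 is highest in epithelium-like cells and close to 0 in macrophage-like cells, and Hspa8 stays within a 1.54-fold range over the 5 classes.

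In epithelium-like and mesenchyme-like cells the stress-inducible Hsp70 genes were the members with the largest ratios between the libraries. Hspa1a was at 42.9 CPM (interval 39.0 to 47.0) in control and 95.6 CPM (88.4 to 103) in deletion epithelium-like cells, 2.23-fold higher in the deletion library (interval 1.97 to 2.52). Hspa1b was at 50.2 CPM (45.9 to 54.7) and 97.2 CPM (89.9 to 105) there, 1.94-fold higher (1.72 to 2.18). The higher level was not limited to the epithelium-like class. In mesenchyme-like cells Hspa1a was at 64.3 and 108 CPM, 1.69-fold higher (1.61 to 1.76), and Hspa1b at 44.7 and 74.7 CPM, 1.67-fold higher (1.58 to 1.77). Mural-like cells, the contractile cells of vessel walls, held the highest levels of both genes, 144 and 242 CPM of Hspa1a and 79.6 and 129 CPM of Hspa1b. In macrophage-like cells Hspa1a was at 76.2 and 114 CPM and Hspa1b at 21.3 and 48.8 CPM. Endothelium-like cells held little of either gene, 16.9 and 45.3 CPM of Hspa1a and 21.5 and 33.3 CPM of Hspa1b. Both genes were thus higher in the deletion library in each of the 5 classes, and none of the 10 ratio intervals included 1. Among genes of at least 50 CPM the interval lay above 1 for 12.1% in epithelium-like, 54.6% in mesenchyme-like, 14.9% in endothelium-like, 21.4% in macrophage-like and 10.7% in mural-like cells. In endothelium-like cells with Xist only the Hspa1b interval was 0.97 to 2.65, and with Y-linked UMIs only it was 0.68 to 1.83, both of which include 1.

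On the scale used for calls, the log2 ratio of CPM + 5 between deletion and control, Hspa1a stood at 1.07 and Hspa1b at 0.89 in epithelium-like cells. A gene was called when it reached 50 CPM in 1 library, differed at least 2-fold on that scale and had a ratio interval without 1. Of the 10 members, 9 reached 50 CPM in epithelium-like cells, all but Hsph1, and 1 was called higher, Hspa1a, where 0.169% of the 3551 genes tested in that class were called higher. With a 1.5-fold threshold both Hspa1a and Hspa1b were called, against 0.479% of all genes tested. In mesenchyme-like cells no member reached 2-fold (0.260% of 3466 genes tested did), and the same pair passed 1.5-fold (3.84% did). Dnajb1 joined them past 1.5-fold in mural-like cells, where 3.63% of genes did. The members were chosen with this contrast known, so these counts stand beside the background and nothing is read from them. Where every epithelial sub-cluster was given equal weight, Hspa1a stood at a log2 ratio of 0.82 and no member was called.

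**Figure D2:**
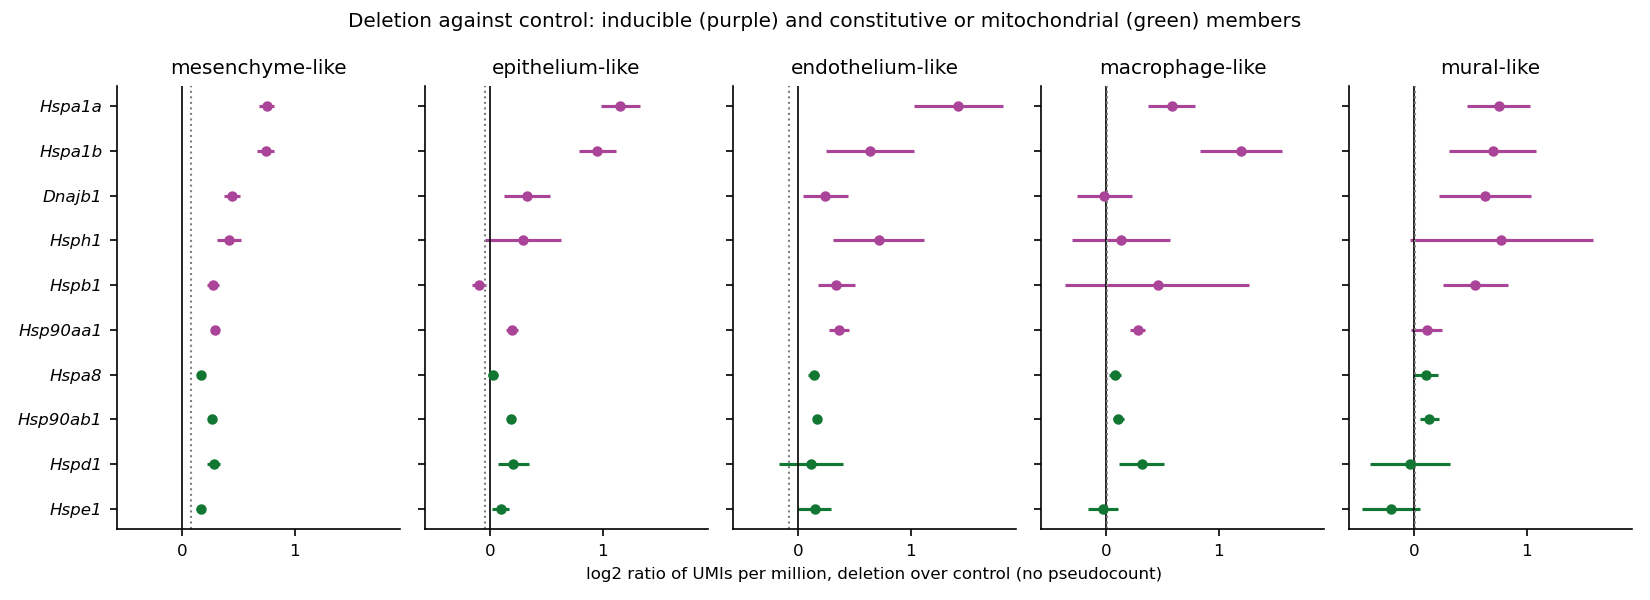
Log2 ratio of CPM, deletion over control, for each member in 5 classes, with 95% intervals of the count ratio; purple points are inducible members, green points constitutive or mitochondrial members, the solid line is 0 and the dotted line the median of all genes of at least 5 CPM. Hspa1a and Hspa1b lie to the right of the other members in epithelium-like and mesenchyme-like cells, and Hspb1 lies left of 0 only in epithelium-like cells.

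Within the epithelium-like class Hspa1a ranged widely in the control library. Of the 12 sub-clusters with at least 20 cells in both libraries, the lowest, led by Tspan8 and Col22a1, was at 7.41 CPM (8 UMIs), and the highest, the oral keratinocyte-like cells of the lining outside the tooth, was at 157 CPM (115 UMIs). Ameloblast-like cells, which secrete enamel matrix, were at 14.7 CPM in control and 75.5 CPM in deletion cells, on 9 and 26 UMIs. Inner enamel epithelium-like cells, from which ameloblasts arise, were at 25.8 and 90.6 CPM, 3.52-fold higher with an interval of 2.53 to 4.93, from a control level inside the interval of neutrophil-like cells. Most of them, 430 control and 296 deletion cells, were in a sub-cluster led by Aldh1a1 and Ecel1, with no naming marker among its leading genes. A sub-cluster led by the same genes stayed unnamed when stress genes were kept in the clustering, so this name is weak. Stratum intermedium-like cells, the layer next to the ameloblasts, were at 21.7 and 25.9 CPM on 16 and 15 UMIs, with a ratio interval of 0.55 to 2.58 that includes 1. Oral keratinocyte-like cells were at 157 and 291 CPM. In all, Hspa1a was higher in the deletion library in 10 of the 12 sub-clusters and its ratio interval lay above 1 in 8 of them. The exceptions were a small sub-cluster led by Plac8 and the mesenchymal gene Col3a1, at 96.6 and 84.3 CPM, and one led by Mindy4 and Ywhah, at 107 and 84.2 CPM, both with intervals that include 1.

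Low control levels in the enamel organ were close to the level in the class where either copy was rarest. Neutrophil-like cells, with the lowest share of cells with a UMI of either copy, held 18.0 CPM of Hspa1a in control (5 UMIs, interval 5.84 to 42.0) and, in deletion cells, 3.94 CPM (1 UMI). The control levels of the ameloblast-like, Tspan8-led, inner enamel epithelium-like, stratum intermedium-like and endothelium-like cells, and of the other epithelial sub-clusters under 42.0 CPM, fall inside the first interval and are not read as expression, so folds against them, the 3.52-fold included, rest on a level not told apart from background. The deletion levels of the ameloblast-like and inner enamel epithelium-like cells, 75.5 and 90.6 CPM, have intervals of 49.3 to 111 and 74.8 to 109, which lie above the first interval. The Tspan8-led deletion level, 52.6 CPM on 29 UMIs, has an interval of 35.2 to 75.5 that overlaps the first interval. The control epithelium-like class as a whole, at 42.9 CPM with an interval of 39.0 to 47.0, overlapped the first interval too.

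In the mesenchyme-like class Hspa1a varied less, from 36.0 to 104 CPM over 12 control sub-clusters and from 66.1 to 163 CPM over the same sub-clusters of the deletion library. It was higher in the deletion library in 11 of the 12, with the ratio interval above 1 in all 11. The exception was a dental papilla-like sub-cluster led by Gldn and Smoc2, at 81.3 and 74.5 CPM. Odontoblast-like cells, which make dentin, were at 67.2 and 119 CPM, dental follicle-like cells, which give rise to the periodontal attachment, at 72.2 and 132 CPM, dental papilla-like cells at 55.4 and 92.7 CPM, and osteoblast-like cells at 59.2 and 99.0 CPM. Perivascular or fibroblast-like cells were at 101 and 158 CPM.

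**Figure D3:**
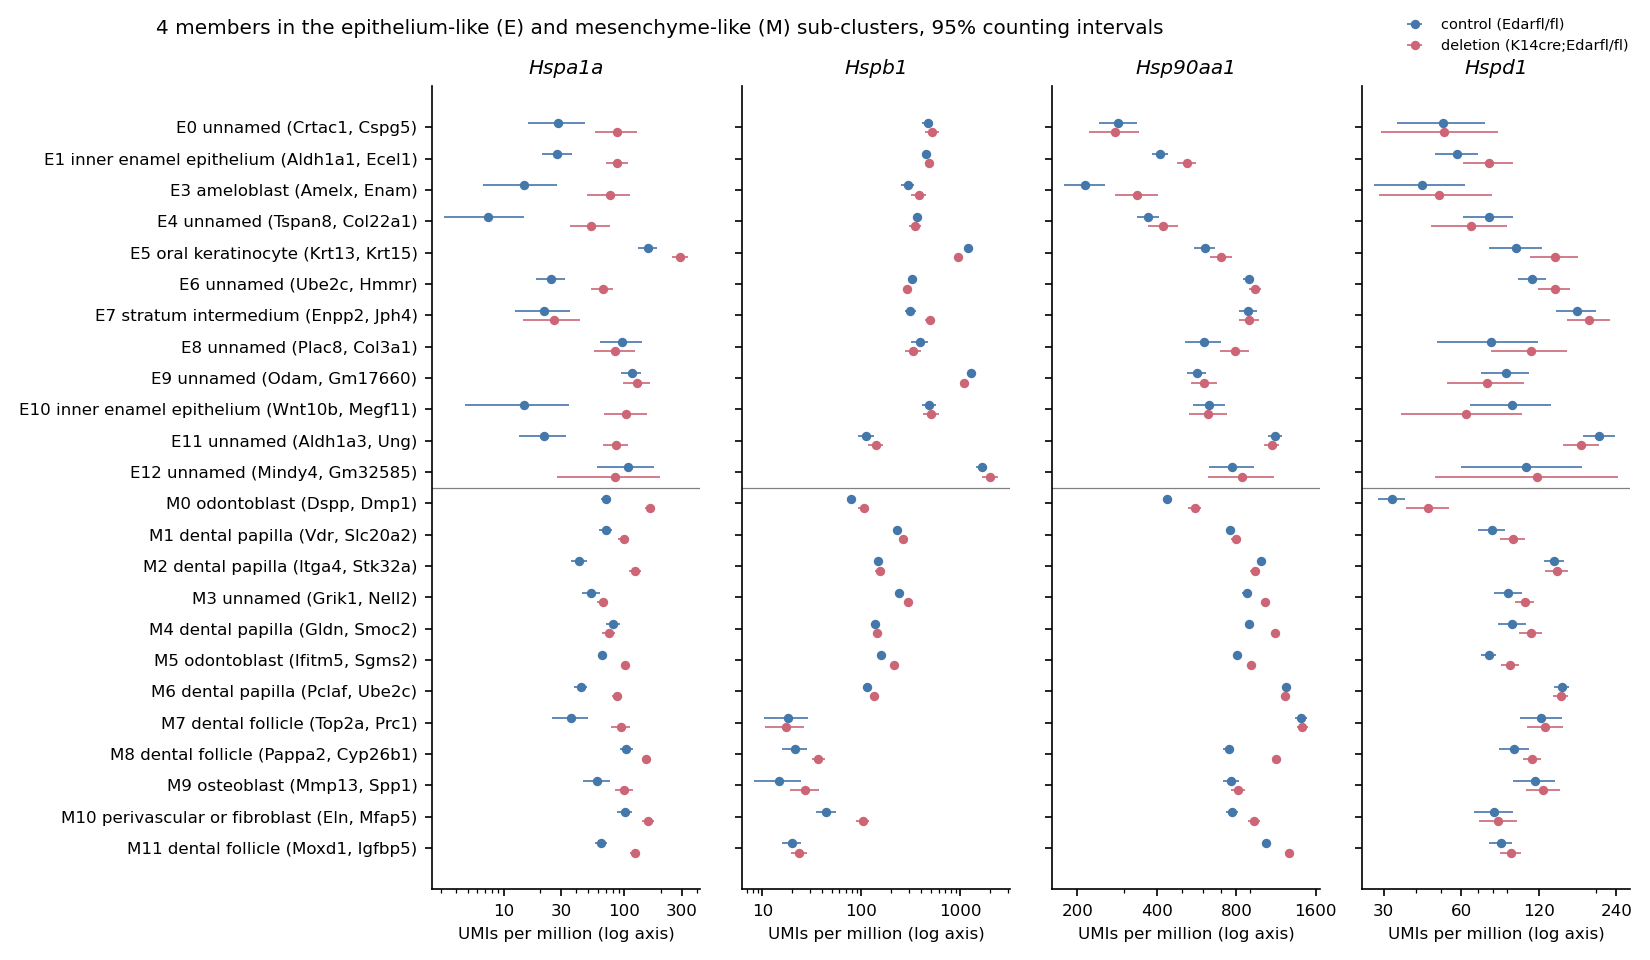
Levels of Hspa1a, Hspb1, Hsp90aa1 and Hspd1 in CPM (log axes) in 12 epithelium-like (E) and 12 mesenchyme-like (M) sub-clusters with at least 20 cells per library, named by marker rule and 2 leading genes; blue is control, red deletion, bars are 95% exact Poisson intervals. The deletion points of Hspa1a lie right of the control points in 21 of 24 sub-clusters, while Hspb1 is highest in the Mindy4-led, Odam-led and oral keratinocyte-like cells and low in dental follicle-like and osteoblast-like cells.

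More cells of the deletion library held the inducible Hsp70 transcripts. At a common depth of 1900 UMIs per cell, 11.5% of 2011 control and 21.6% of 1535 deletion epithelium-like cells held at least 1 UMI of Hspa1a or Hspa1b (exact binomial intervals 10.1 to 13.0% and 19.5 to 23.7%). The shares were 16.3 and 22.3% in mesenchyme-like, 4.94 and 11.6% in endothelium-like, 12.1 and 18.9% in macrophage-like and 30.6 and 38.3% in mural-like cells. Neutrophil-like cells held 1 such cell of 60 in control and 0 of 45 in the deletion library. Without thinning, at medians of 3987 and 3004 UMIs, the epithelium-like shares were 22.2 and 29.1%. The mesenchyme-like shares without thinning were 32.6 and 33.8%, at medians of 4771 and 3388 UMIs, so there the gap showed mostly at equal depth. No kept epithelium-like cell held more than 19 UMIs of both copies together.

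The balance between the copies was not the same in all classes. Hspa1a made up 59.0% of the UMIs of both copies in control and 59.2% in deletion mesenchyme-like cells, with intervals of 57.6 to 60.3% and 58.1 to 60.3%. It made up 46.1% (42.9 to 49.3%) and 49.6% (46.9 to 52.3%) in epithelium-like cells and 78.2% (74.2 to 81.7%) and 70.0% (66.0 to 73.9%) in macrophage-like cells. The mural-like shares were 64.4 and 65.3%. In endothelium-like cells the share was 44.1% of 186 UMIs in control and 57.6% of 283 UMIs in the deletion library. In both libraries the macrophage-like share lay above the mesenchyme-like share and the epithelium-like share below it, with intervals that do not overlap.

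**Figure D4:**
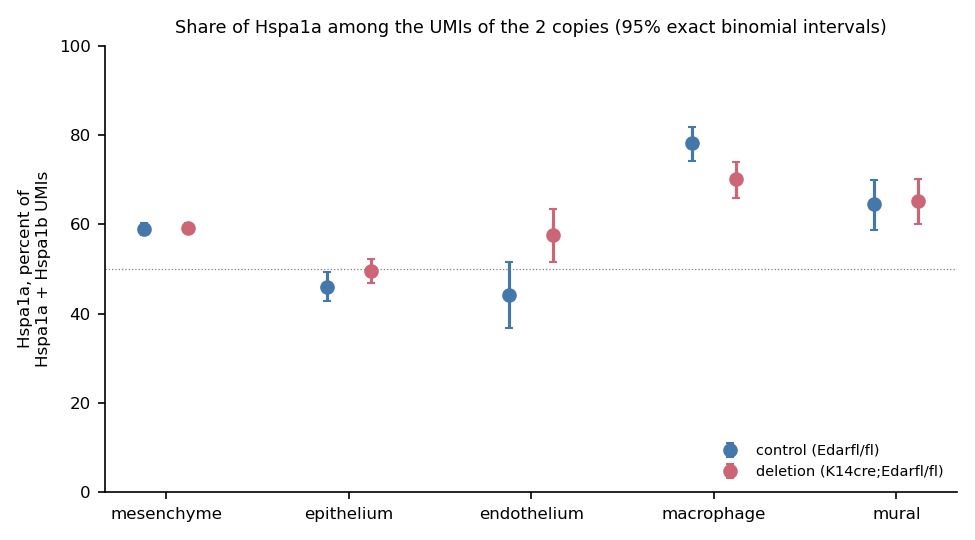
Percent of the summed Hspa1a and Hspa1b UMIs that were counted as Hspa1a, by cell class, for control (blue) and deletion (red); bars are 95% exact binomial intervals and the dotted line marks an equal split. The share runs from 46.1% in control epithelium-like cells, or 44.1% in control endothelium-like cells on fewer UMIs, to 78.2% in control macrophage-like cells.

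In epithelium-like and mesenchyme-like cells the partners of Hsp70 had smaller ratios than Hspa1a and Hspa1b. Dnajb1 was at 62.8 and 85.3 CPM in mesenchyme-like cells, 1.36-fold higher (1.29 to 1.43), and at 41.1 and 51.7 CPM in epithelium-like cells, 1.26-fold higher (1.09 to 1.45). Mural-like cells held 72.1 and 111 CPM. In macrophage-like cells it was at 70.0 and 69.2 CPM, where the interval of 0.83 to 1.17 includes 1. Dnajb1 was higher in all 12 epithelial sub-clusters, although no single interval lay above 1, and in 11 of 12 mesenchymal ones. In epithelium-like cells with Y-linked UMIs only it was lower in the deletion library, at a log2 ratio of −0.14, against 0.70 in cells with Xist only. Hsph1 had the lowest counts of the list. It was at 26.3 and 35.0 CPM in mesenchyme-like cells, 1.33-fold higher (1.24 to 1.44), at 19.8 and 32.5 CPM in endothelium-like cells, where its ratio of 1.64 stood beside 1.55 for Hspa1b, and at 16.0 and 19.6 CPM in epithelium-like cells on 166 and 134 UMIs, where the interval of 0.97 to 1.55 includes 1.

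Hsp90aa1 ranged more widely over cell states than between the libraries. In mesenchyme-like cells it was at 843 and 1034 CPM, 1.23-fold higher (1.21 to 1.24), and in epithelium-like cells at 633 and 725 CPM, 1.15-fold higher (1.10 to 1.19). Over the control epithelial sub-clusters it ran from 213 CPM in ameloblast-like cells to 1118 CPM in a sub-cluster led by Aldh1a3 and Ung, a range of 5.24-fold. Over the control mesenchymal sub-clusters it ran from 436 CPM in the Dspp-rich and Dmp1-rich odontoblast-like cells to 1404 CPM in dental follicle-like cells led by Top2a, a gene of dividing cells. The matrix-secreting cells of both lineages were thus at the low end in the control library, and deletion cells of the same sub-clusters were at 337 and 556 CPM. The dividing papilla-like cells led by Pclaf and Ube2c were at 1237 and 1219 CPM, with a ratio interval of 0.95 to 1.02.

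Hspb1 was the member most tied to cell type. In the control library it was at 509 CPM in epithelium-like cells, 150 CPM in mural-like, 134 CPM in endothelium-like, 117 CPM in mesenchyme-like and 5.77 CPM in macrophage-like cells (29 UMIs), an 88.3-fold range. The neighbours mural-like and endothelium-like in that order had overlapping intervals, as had macrophage-like and neutrophil-like cells. Within the epithelium it was high in oral keratinocyte-like cells, at 1187 and 943 CPM, in a sub-cluster led by Odam, an enamel-organ gene of maturing ameloblasts and junctional epithelium, at 1278 and 1093 CPM, and in the Mindy4-led and Ywhah-led sub-cluster, at 1641 and 1988 CPM. It was lowest in the Aldh1a3-led sub-cluster, at 112 and 139 CPM. Within the mesenchyme it was at 151 and 168 CPM in dental papilla-like and 121 and 183 CPM in odontoblast-like cells, but at 20.1 and 28.8 CPM in dental follicle-like and 14.8 and 26.7 CPM in osteoblast-like cells.

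Over the 5 classes Hspb1 was also the member with ratio intervals on both sides of 1. Hspe1, Hspd1 and Dnajb1 changed sign too, but with intervals that include 1 in the classes where they were lower. In the deletion library it was lower in epithelium-like cells, at 476 CPM, with a ratio of 0.93 and an interval of 0.89 to 0.98, and higher in mesenchyme-like cells at 141 CPM, at 170 CPM in endothelium-like and at 219 CPM in mural-like cells. Oral keratinocyte-like and Odam-led cells were the 2 epithelial sub-clusters whose interval lay below 1, while Hspb1 was higher in 7 of the 12. Stratum intermedium-like cells went the other way, from 312 to 491 CPM, with an interval of 1.32 to 1.88. The mix of cells differed too. Odam-led cells were 215 in control and 146 in deletion, Mindy4-led 86 and 44, oral keratinocyte-like 166 and 197 and Aldh1a3-led 198 and 266, of 2270 and 1886. Its part in the lower epithelial level of Hspb1 was not tested. With equal weight for every epithelial sub-cluster the log2 ratio was 0.04 in place of −0.10, and it was 0.12 in epithelium-like cells with Y-linked UMIs only. In mesenchyme-like cells with Xist only it was −0.06 in place of 0.27. The perivascular or fibroblast-like cells held the largest mesenchymal difference of Hspb1, from 43.7 to 103 CPM with an interval of 1.80 to 3.14.

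The constitutive cytosolic members Hspa8 and Hsp90ab1 both varied little over the 5 classes and more over sub-clusters, Hsp90ab1 the more of the 2. Hspa8, which folds new proteins and feeds clathrin uncoating and chaperone-mediated autophagy, was at 964 and 1086 CPM in mesenchyme-like, 1045 and 1061 CPM in epithelium-like, 1486 and 1632 CPM in endothelium-like, 1338 and 1413 CPM in macrophage-like and 1136 and 1217 CPM in mural-like cells. Its range over these 5 classes was 1.54-fold in both libraries, with endothelium-like cells at the top, against 8.51-fold and 5.35-fold for Hspa1a. The low end of the control range of Hspa1a is the endothelium-like 16.9 CPM, a level not told apart from background. The epithelium-like ratio of Hspa8 was 1.02 with an interval of 0.99 to 1.05. Hsp90ab1 was at 2118 and 2538 CPM in mesenchyme-like cells, 1.20-fold higher (1.19 to 1.21), and at 2588 and 2934 CPM in epithelium-like cells, 1.13-fold higher (1.11 to 1.15). Its range over the 5 classes was 1.62-fold in control and 1.69-fold in the deletion library. Over control sub-clusters Hspa8 spanned 1.86-fold in the epithelium and 2.11-fold in the mesenchyme, and Hsp90ab1 2.85-fold and 3.42-fold. The lowest control levels of Hsp90ab1 were in the Dspp-rich odontoblast-like cells, at 924 CPM, and in ameloblast-like cells, at 1336 CPM. Its highest, 3812 CPM, was in the Aldh1a3-led epithelial sub-cluster.

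The mitochondrial chaperonin pair moved together over cell states. Hspd1 ran from 42.4 CPM in ameloblast-like to 206 CPM in Aldh1a3-led control epithelial cells, and Hspe1 from 147 to 560 CPM between the same sub-clusters. In the control mesenchyme Hspd1 ran from 32.3 CPM in Dspp-rich odontoblast-like cells to 147 CPM in the dividing Pclaf-led papilla-like cells, and Hspe1 from 109 to 310 CPM between the same sub-clusters. Between libraries the pair differed little. In mesenchyme-like cells Hspd1 was at 88.1 and 107 CPM, 1.21-fold higher (1.16 to 1.27), and Hspe1 at 216 and 242 CPM. In epithelium-like cells Hspd1 was at 99.5 and 115 CPM and Hspe1 at 314 and 335 CPM, a ratio of 1.07 (1.01 to 1.13) for Hspe1. Mural-like cells held 124 and 121 CPM of Hspd1, and 248 and 215 CPM of Hspe1, both with intervals that include 1. Endothelium-like cells were lowest in both genes among the 5 classes, at 47.3 and 51.1 CPM of Hspd1.

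Over all 10 members the ratio was above 1 for 9 in epithelium-like and for 10 in mesenchyme-like cells. The interval lay above 1 for 7 of 10 in epithelium-like cells, where this was so for 12.1% of all genes tested and the interval lay below 1 for 30.3% of them and for 1 member, Hspb1, and for 10 of 10 in mesenchyme-like cells, where it was so for 54.6%. The mesenchyme-like count thus stands beside a background in which most genes tested did the same. The median log2 ratio of the 10 members was 0.20 in epithelium-like and 0.28 in mesenchyme-like cells, beside −0.04 and 0.08 over all genes of at least 5 CPM. The 6 inducible members had medians of 0.26 in epithelium-like, 0.38 in mesenchyme-like, 0.45 in endothelium-like, 0.27 in macrophage-like and 0.62 in mural-like cells. Hspa1a and Hspa1b are 2 of these 6, and their difference was known when the list was drawn up. The 4 constitutive and mitochondrial members had 0.14, 0.22, 0.14, 0.09 and 0.03 in the same order. All genes of at least 5 CPM had medians of −0.08 in endothelium-like, 0.01 in macrophage-like and 0.003 in mural-like cells. The 10 members together took 0.534% of epithelium-like UMIs in control and 0.591% in the deletion library, and 0.454 and 0.545% of mesenchyme-like UMIs.

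Cell classes with few cells gave wide intervals. In neutrophil-like cells most members were near 0, and Hspe1, on 5 and 14 UMIs, was the member past 2-fold, where 6.96% of genes were called higher. In glia-like cells, 38 in control and 108 in the deletion library, Hspb1 was lower in the deletion library at 86.2 and 10.6 CPM on 10 and 4 UMIs, where 6.20% of genes were called lower. In osteoclast-like cells, 42 and 104, Hspd1 was at 209 and 212 CPM.

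Several members varied together over the 24 sub-clusters, without clear separate sets, as a description of points that share a library and its depth. In the control library Hspa1a correlated with Hspa1b at Pearson's r of 0.85 and with Dnajb1 at 0.74, and with Hspa8, Hsp90ab1, Hspd1 and Hspe1 at −0.14, −0.11, −0.03 and −0.09. Hspd1 correlated with Hspe1 at 0.82 and with Hsp90aa1 at 0.79, and Hsp90ab1 with Hspe1 at 0.85. Hsph1 correlated with Hsp90aa1 at 0.79, with Dnajb1 at 0.63 and with Hspd1 at 0.59, and Dnajb1 with Hsp90aa1 at 0.49. In the deletion library the same pairs gave 0.71 for Hspa1a and Hspa1b, 0.66 for Hspa1a and Dnajb1, 0.72 for Hspd1 and Hspe1, and 0.83 for Hsp90ab1 and Hspe1. Hspb1 correlated with Hsph1 at −0.53 and with Hsp90aa1 at −0.42 in control, and at −0.27 and −0.53 in the deletion library. Its highest correlation with any other member was 0.28. Values are log2 of CPM + 5.

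In single cells the immediate early genes were higher where Hspa1a and Hspa1b were counted. Dnajb1 was higher there too in epithelium-like and mesenchyme-like cells. In the smaller classes Dnajb1 rested on few cells and differed between the libraries, and the other members varied by class and library. Immediate early genes are transcription factor genes such as Fos, Jun and Egr1 that cells switch on within minutes of a stimulus, dissociation included. In control epithelium-like cells thinned to 1900 UMIs, the summed immediate early genes were at 2636 CPM in cells without a UMI of Hspa1a or Hspa1b, 5160 CPM in cells with 1 and 11187 CPM in cells with 2 to 4. The deletion cells gave 3792, 7850 and 11619 CPM. Dnajb1 was at 34.0, 60.8 and 86.1 CPM over the same control cells, while Hspd1 was at 94.9, 116 and 105 CPM and Hsp90ab1 at 2598, 2559 and 2287 CPM. In control mesenchyme-like cells the immediate early genes were at 10113, 15131 and 19507 CPM, and Dnajb1 at 59.7, 80.6 and 102 CPM. The inducible Hsph1, on low counts, was at 27.0, 26.9 and 22.8 CPM there, but at 33.3, 35.9 and 38.7 CPM in deletion mesenchyme-like cells. In epithelium-like cells Hsph1 was at 14.2, 18.3 and 38.3 CPM in control and 19.2, 14.9 and 25.3 CPM in the deletion library. Over the same groups Dnajb1 was at 65.5, 64.2 and 75.2 CPM in control macrophage-like cells and at 66.8, 81.7 and 78.0 CPM in control mural-like cells. The last of these groups held 21 and 27 cells. It was at 94.1, 83.1 and 158 CPM in control endothelium-like cells, the last on 10 cells. In deletion cells Dnajb1 was at 44.8, 86.3 and 68.6 CPM in macrophage-like and 91.1, 103 and 228 CPM in mural-like cells. Deletion endothelium-like cells held 91.3, 154 and 124 CPM of Dnajb1. The last of these deletion groups held 23, 37 and 17 cells. The constitutive Hspa8 was at 1047, 1123 and 1199 CPM in deletion mesenchyme-like cells and at 1125, 1361 and 1481 CPM in control mural-like cells, and Hsp90aa1 at 1024, 1112 and 1235 CPM in deletion mesenchyme-like cells, so a higher level beside Hspa1a and Hspa1b was not limited to the inducible members. Each of these cells was thinned to the same number of UMIs. Hspb1 was at 442, 840 and 880 CPM over the control epithelium-like cells, a class in which the oral keratinocyte-like cells were high in both Hspb1 and Hspa1a.

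**Figure D5:**
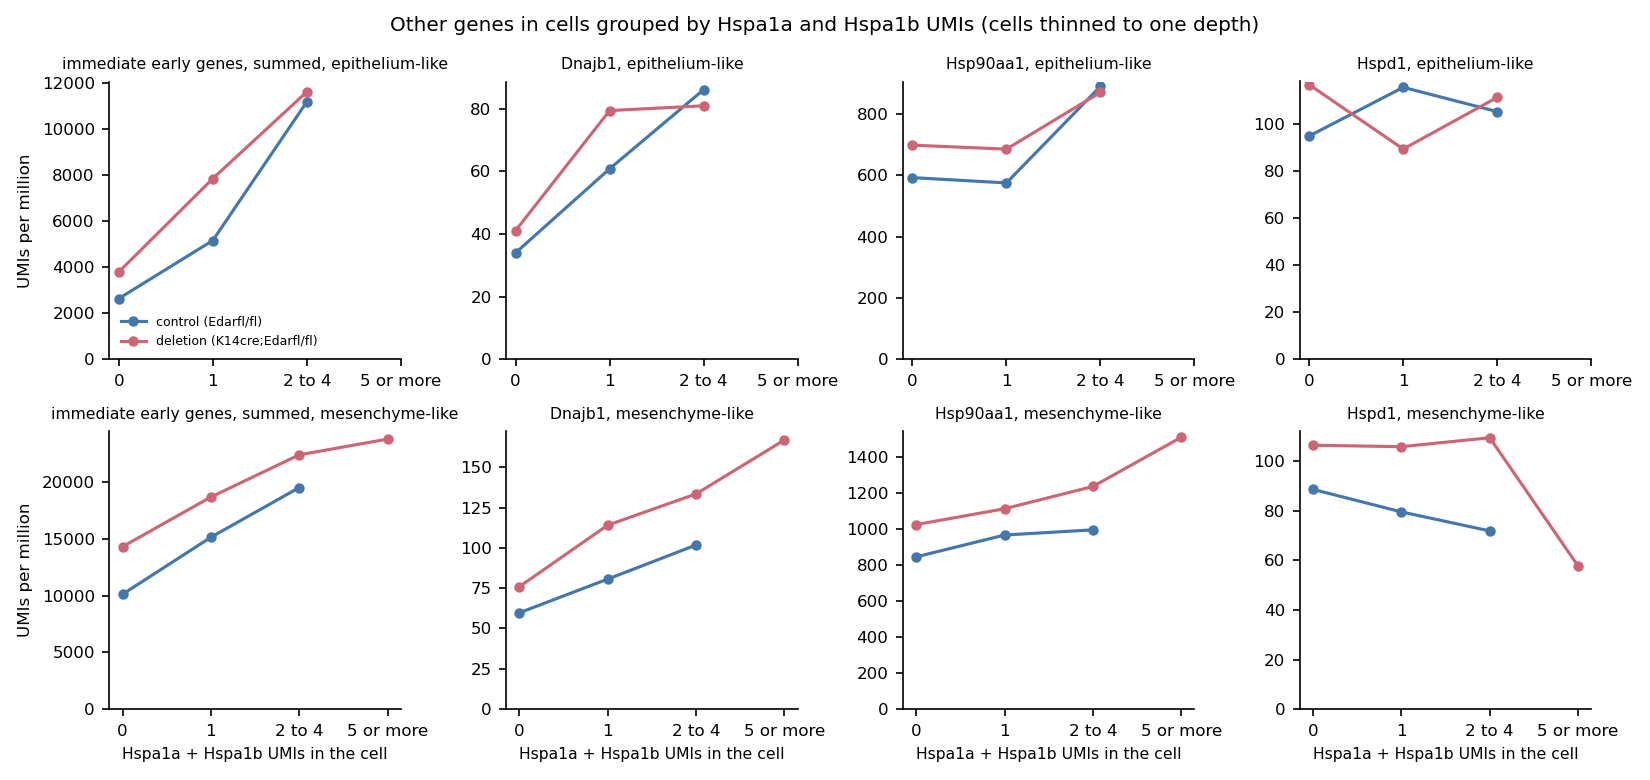
Summed immediate early genes, Dnajb1, Hsp90aa1 and Hspd1, in CPM on axes from 0, in epithelium-like (top) and mesenchyme-like (bottom) cells grouped by their UMIs of Hspa1a and Hspa1b after thinning to 1900 UMIs; blue is control, red deletion, and groups under 20 cells are not drawn. Immediate early genes and Dnajb1 are higher in cells with more Hspa1a and Hspa1b UMIs in both libraries, from 2636 to 11187 CPM of immediate early genes in control epithelium-like cells, while Hspd1 does not follow.

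The summed immediate early genes were also higher in the deletion library in the 5 larger classes, and their part in the Hsp70 difference was not tested. Of 26 measured in epithelium-like cells, 24 were above 0 in log2 ratio, with a median of 0.55, beside −0.04 of all genes. Fos and Zfp36 passed 2-fold there, where 0.169% of genes were called higher, Fos at 496 and 1023 CPM and Zfp36 at 109 and 224 CPM. Of 26 in mesenchyme-like cells, 25 were above 0, with a median of 0.57, beside 0.08 of all genes. None passed 2-fold there, where 0.260% of genes did, with Fos at 2120 and 2705 CPM and Egr1 at 1542 and 1924 CPM. In endothelium-like, macrophage-like and mural-like cells 26, 15 and 27 of 27 were above 0. The medians there were 0.36, 0.13 and 0.54, beside −0.08, 0.01 and 0.003 of all genes. The summed share of UMIs of the immediate early genes went from 0.338 to 0.521% in epithelium-like, 1.10 to 1.51% in mesenchyme-like, 1.03 to 1.30% in endothelium-like, 1.67 to 1.75% in macrophage-like and 1.09 to 1.63% in mural-like cells. It went the other way in neutrophil-like cells, from 1.39 to 1.15%, and in glia-like cells, from 1.92 to 1.55%, and 9 of 27, 12 of 26 and 11 of 25 of these genes were above 0 in neutrophil-like, glia-like and osteoclast-like cells. Median mitochondrial shares were 6.94 and 8.43% in epithelium-like and 7.56 and 6.79% in mesenchyme-like cells. A difference in how the 2 samples were handled and the genotype cannot be told apart with 1 library each.

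In epithelium-like and mesenchyme-like cells no chaperone listed outside the members passed 2-fold. Of all genes tested there, 0.169 and 0.260% were called higher, so nothing is read from this. Of 45 measured cytosolic chaperones and co-chaperones outside the members, 16 were above 0 and 29 below in epithelium-like cells, with a median of −0.05, beside −0.04 of all genes. In mesenchyme-like cells 36 of 46 were above 0, with a median of 0.13, beside 0.08 of all genes. The most abundant of them, Dnaja1, an Hsp40 partner of Hsp70, was at 243 and 291 CPM in epithelium-like and 314 and 449 CPM in mesenchyme-like cells, and Bag3, a stress-inducible nucleotide exchange factor of Hsp70, at 128 and 140 CPM and at 170 and 244 CPM. The chaperonin TRiC and prefoldin, which fold actin and tubulin, split 7 above and 7 below 0 in both classes, with Cct2 at 378 and 398 CPM and Pfdn5 at 295 and 315 CPM in epithelium-like cells. Heat shock factors and their regulators had medians of −0.01 in epithelium-like and 0.11 in mesenchyme-like cells, with Hsbp1, a binding protein of heat shock factor 1, at 184 and 178 CPM and Hikeshi, the nuclear importer of Hsp70, at 21.2 and 26.3 CPM in epithelium-like cells. Mitochondrial chaperones outside the members had medians of −0.05 and −0.00, with Hspa9 at 116 and 113 CPM and Dnajc19 at 71.1 and 75.6 CPM in epithelium-like cells.

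Chaperones of the endoplasmic reticulum, which serve the secretory pathway, had medians just below 0 in the 5 larger classes, and the smaller classes differed. In epithelium-like cells 19 of 23 were below 0 with a median of −0.06, near the −0.04 of all genes. In mesenchyme-like cells 14 of 23 were below 0 with a median of −0.08, beside 0.08 of all genes. The medians were −0.07 in endothelium-like, −0.003 in macrophage-like and −0.15 in mural-like cells, beside −0.08, 0.01 and 0.003 of all genes. In glia-like cells the median was −0.36, beside 0.02 of all genes. In neutrophil-like cells 16 of 23 were above 0 with a median of 0.37, beside 0.12 of all genes, and in lymphocyte-like cells 14 of 23 with 0.14, beside 0.03. Serpinh1, the collagen chaperone Hsp47, was at 1061 and 1021 CPM in epithelium-like and at 2661 and 2036 CPM in mesenchyme-like cells, and Hsp90b1 at 1727 and 1651 CPM in epithelium-like cells. Of the oxidative and metal stress genes, the metallothionein Mt1 was the one past 2-fold in epithelium-like cells, at 24.6 and 156 CPM, while Sqstm1, an autophagy receptor, was at 156 and 137 CPM. Hmox1, the haem-degrading enzyme, was lower in macrophage-like deletion cells at 3016 and 1489 CPM, where 0.117% of genes were called lower. Nr4a2, an immediate early nuclear receptor, was higher in mural-like cells at 81.1 and 175 CPM, where 0.446% of genes were called higher. In glia-like cells, where 5.32% of genes were called higher, the small heat shock protein Cryab was at 552 and 1201 CPM, Hspa12a at 94.8 and 327 CPM on 11 and 124 UMIs, and Dnaja2 at 25.9 and 100.3 CPM on 3 and 38 UMIs.

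The other listed genes past 2-fold were in classes of few cells, and many rested on few UMIs. In neutrophil-like cells the endoplasmic reticulum genes Dnajc1 (6 and 15 UMIs), Canx (14 and 31) and Serpinh1 (16 and 38) and the stress factor gene Atf3 (10 and 24) were higher in the deletion library and Egr2 (18 and 6) lower, where 2.91% of genes were called lower. Serpinh1 is the gene that the mesenchyme-like class held at 2661 CPM in control. In glia-like cells Hsbp1 was at 103 and 245 CPM, Atf3 at 103 and 314 CPM, Hmox1 at 25.9 and 103 CPM, Mt1 at 77.6 and 338 CPM and Mt2 at 181 and 707 CPM. The genes called lower in glia-like cells were Dnajc19 (16 and 25 UMIs), Sdf2l1 (9 and 5), Creld2 (10 and 10), Ier5 (17 and 21), Dusp1 (47 and 65) and Socs3 (49 and 75), where the deletion library held 108 cells against 38. In osteoclast-like cells Egr1 was at 24.6 and 56.7 CPM and Ier3 at 76.3 and 35.3 CPM, where 0.691% of genes were called higher and 1.14% lower. In lymphocyte-like cells, 23 and 36, Dnajc21 and P4hb were each on 6 control UMIs and on 26 and 22 deletion UMIs, where 2.59% of genes were called higher. There Fos and Fosb were each on 2 control UMIs and on 64 and 29 deletion UMIs, and Serpinh1 and Ddit3 had 0 control UMIs and 11 and 8 deletion UMIs. In the unnamed cluster led by Ly6c2 and Il1b, Fkbp4, an Hsp90 co-chaperone, was at 71.9 and 30.5 CPM, where 1.72% of genes were called lower.

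Over 12 points, 6 classes in 2 libraries, the genes whose log2 level was most like that of Hspa1a among 5796 genes were Epb41l1 (Pearson's r 0.91), Ogdh (0.91), Abi2 (0.91), Suclg1 (0.90) and Itgav (0.89). Those most like Hspa8 were Emp1 (0.98), Cdc37 (0.96), mt-Co1 (0.96), Ctnnd1 (0.96) and Aph1a (0.95). The points share libraries and include neutrophil-like cells, in which most members were near 0.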

How the data were processed

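Single-cell RNA-seq was done on 1 control and 1 deletion library (BD Rhapsody, per the labels' protocols). The deposited files hold raw UMI counts per gene and cell, made by the authors with STARsolo on mm10, per the submitters' processing notes; their versions, the annotation and the settings of the counting are not given in the sources used. The counts were used as deposited. Cells with at least 500 genes and at most 20% mitochondrial UMIs were kept, and doublets were called per library (176 control, 243 deletion) and removed. Cells were clustered with scanpy 1.11.5 (2000 variable genes, 30 components, 15 neighbours, resolution 1, and 0.6 within epithelium and mesenchyme) without heat shock, chaperone, stress and immediate early genes.

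Clusters were named from fixed marker lists. The rule that turns marker scores into names was set after the clusters had been seen and was revised more than once; it used no level of a member, and rebuilt names may differ from the study's own. A name needed at least 3 detected markers. A cluster whose leading genes held more markers of another type, or whose score was weak, stayed unnamed. Some named sub-clusters had none of their own markers among their leading genes, so their names rest on the marker score. These include the Aldh1a1-led inner enamel epithelium-like, several dental papilla-like and the Top2a-led dental follicle-like sub-clusters. UMIs were summed per class and library, with exact Poisson intervals for CPM, exact conditional binomial intervals for count ratios and exact Clopper-Pearson intervals for shares. PCR and capture were not replicated and cells are not replicates, so all intervals cover counting error only and no p-value is given. Log2 ratios are of CPM + 5, which understates the change of low genes. Cells were thinned to 1900 UMIs, leaving out shallower ones, to compare shares. The fold rule was checked on simulated data.

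The members, gene lists and comparisons were chosen with earlier results of these data known. Named genes are the 10 members in every class with at least 20 cells in both libraries, list genes past 2-fold in any class or the 2 highest of each list in epithelium or mesenchyme, and the 5 genes most like Hspa1a and Hspa8. Sequences are from RefSeq promoter windows and the annotation of GRCm38. Alternatives were scaling, pseudocount, cell filters, doublets, thinning, cluster weights, clustering with stress genes and the fold threshold. After the data were seen, 3 more were added: leaving out epithelial sub-clusters led by genes of other lineages, cells with Xist only, and cells with Y-linked UMIs only.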

Additional observations from a re-analysis of the deposited data

Results flagged for a closer look

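Hspb1 was flagged because its ratio between the libraries pointed in opposite directions in different cell classes, with counting intervals that leave out 1 on both sides. The log2 ratio of deletion over control was −0.10 in epithelium-like cells, where Hspb1 was at 509 CPM in control and 476 CPM in the deletion library. It was 0.27 in mesenchyme-like, 0.33 in endothelium-like and 0.53 in mural-like cells. The difference between the classes was not tested, since each group was 1 library. The epithelial value was 0.04 with equal weight for each sub-cluster, and the mural-like value was −0.72 in cells with Y-linked UMIs only.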

How the results depend on the processing

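Of 76 values for the comparisons, 61 kept their direction and size and 15 moved; of 859 values for single genes 651 stayed, 193 moved and 15 turned direction, counting as turned a gene of at least 50 CPM whose main interval leaves out 1; another 29 values changed sign from a main value without such a call. The number of members past the rule in epithelium-like cells, 1, became 0 with stricter cell filters, with equal sub-cluster weights and in cells with Y-linked UMIs only, and 2 after thinning, at 1.5-fold and in cells with Xist only; in mesenchyme-like cells it went from 0 to 2 at 1.5-fold. The median of the 10 members in epithelium-like cells, 0.20, was 0.32 in cells with Xist only and 0.075 in cells with Y-linked UMIs only. In mesenchyme-like cells it was 0.28, and 0.21 with median-of-ratios scaling, 0.21 in cells with Xist only and 0.40 in cells with Y-linked UMIs only; the median of the endoplasmic reticulum chaperones became −0.14 with median-of-ratios scaling, which shifts mesenchyme-like values by −0.07. The Hspa1a share of cells differed by 6.16 percentage points in epithelium-like cells and by 2.92 at 2 UMIs or more, and in mesenchyme-like cells by 1.01 and, after thinning, 4.31. Equal sub-cluster weights turned Hspb1 (0.042), Hspe1 (−0.00398) and Hsp90b1 (0.027) in epithelium-like and Hsbp1 (−0.024) and Pfdn5 (0.0096) in mesenchyme-like cells. Cells with Xist only turned epithelium-like Pfdn5 (−0.035), mesenchyme-like Hspb1 (−0.064) and Hsbp1 (−0.080) and endothelium-like Dnajb1 (−0.19). Cells with Y-linked UMIs only turned epithelium-like Dnajb1 (−0.14), Hspb1 (0.12), Hspe1 (−0.025) and Cct2 (−0.067) and mural-like Hspb1 (−0.72). Thinning turned macrophage-like Hspa8 (−0.022). The cause was not tested. Hspa1a stayed above 0 in every alternative run, from 0.67 to 1.27 in epithelium-like and from 0.58 to 0.77 in mesenchyme-like cells.

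No paired analysis was possible because each group is 1 library, so there is no replicate to leave out either. Depth limits Hsph1 outside mesenchyme-like cells and most members in neutrophil-like, glia-like and osteoclast-like cells.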
